A study of Mus musculus with 18 samples.

Results

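The comparison set keratinocytes from papillomas against keratinocytes from the nontumoral skin beside them, in control mice without Cre. Its members were the 6 libraries labelled tumor or treated and fl/fl, 3 in each group, out of 18 columns in the count table. Of 52636 genes in that table, 15362 had enough counts to be tested. The control mice carried floxed Zfp36 alleles, written fl/fl, and no Cre recombinase, on a C57BL/6 background. In their ΔK14 littermates, used here for side-by-side values, a Cre driven by the human keratin 14 promoter deleted Zfp36 in keratinocytes. Both tumors and treated skin came from mice given DMBA, a mutagen that initiates skin tumors, and then TPA, a phorbol ester that promotes them. The treated skin had thus received the same agents as the tumors, and the comparison asked what papilloma keratinocytes gain and lose against exposed skin that formed no tumor. Mock skin, which supplies levels only, came from mice given neither agent. The labels name whole skin as the source and describe the treated samples as tumoral keratinocytes, while the methods describe nontumoral skin and a sort for EpCAM-bearing epidermal cells that left out those with leukocyte, fibroblast or endothelial surface markers. Per the methods, the same column kit was used for RNA of the sorted cells from mock skin, treated skin and tumors. The labels also list a homogenization protocol for treated nontumoral skin, which the methods tie to biopsies of another mouse line. Whether RNA extraction differed between the groups was not tested.

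Papillomas of this protocol are benign outgrowths of the epidermis that usually carry an activated Ras gene. Signals from growth factor receptors of the EGF receptor family run through Ras and the MAP kinases to AP-1 transcription factors such as Fosl1. In wounded or tumor-bearing epidermis, keratinocytes switch on stress keratins, chemokines, integrins and matrix proteases. Normal back skin also holds hair follicles, whose matrix and root sheaths are built under WNT, hedgehog and BMP signals and express keratins of their own. Tristetraprolin, the product of Zfp36, is an RNA-binding protein that recognizes AU-rich elements after the coding sequence and shortens the life of cytokine and growth factor mRNAs.

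Total counts were 4124233 to 7404684 for treated skin and 2808550 to 6925500 for tumors. Ribosomal RNA and transcripts overlapping it took 8.95% to 14.1% of counts in treated skin and 9.06% to 21.3% in tumors, and mitochondrial genes took 3.43% to 3.65% and 5.12% to 7.07%. Tumor replicate 1 had the lowest total, the highest ribosomal share (95% Wilson interval 21.3% to 21.4%, counting error only) and the fewest genes with a count, 19219 against 24891 to 27435 in treated skin. The first principal component held 76.9% of the variance of the 6 libraries and separated tumors from treated skin, while the second held 17.7% and set tumor replicate 1 apart from the other tumors. Nothing in the labels says that the 3 libraries of a group came from separate mice, so each p-value measures the spread between these libraries, which may be technical. In bulk libraries a lower level of a gene may reflect fewer cells that express it or less RNA per cell, and these cannot be told apart.

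Papilloma keratinocytes differed from treated skin in 2764 genes, which was 18.0% of those tested. A gene was called when edgeR's quasi-likelihood test gave a Benjamini-Hochberg adjusted p under 0.05 and the fold change exceeded 2. In tumors 1152 genes were higher (7.50%) and 1612 were lower (10.5%), and 12598 were not called. The changes were often large, with 163 of the higher and 315 of the lower genes past 8-fold. The median log2 fold change over all tested genes was -0.02. Leaving out 1 library changed the number of calls to between 1106 (without treated replicate 1) and 4138 (without tumor replicate 1). The count was 1497 without treated replicate 2, 1517 without treated replicate 3 and 1678 without tumor replicate 3. The groups did not overlap in 3216 genes that stood higher in tumors (20.9% of those tested) and in 3839 that stood lower (25.0%).

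**Figure D1:**
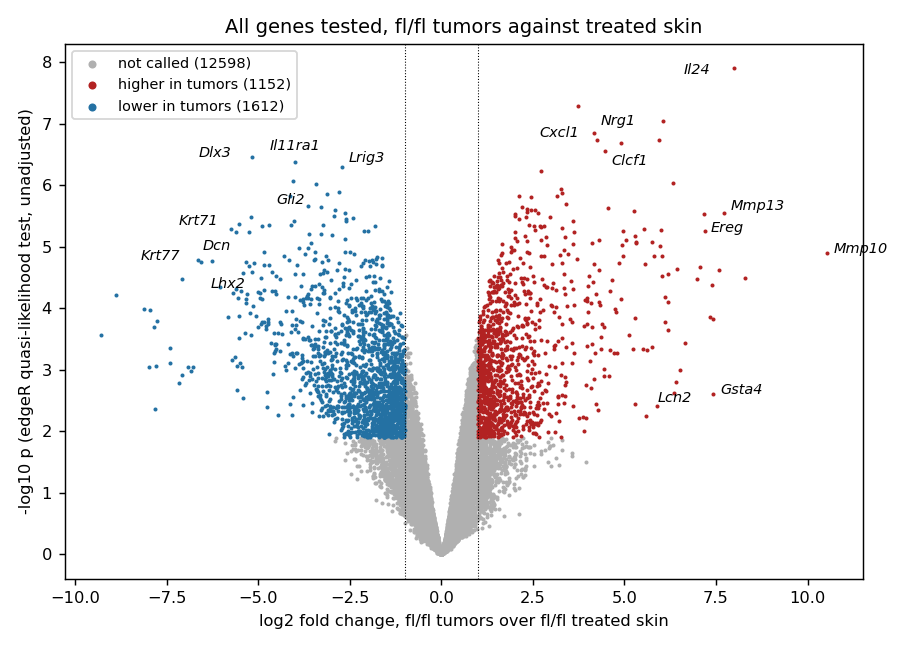
Each point is 1 of the 15362 genes tested, with the log2 fold change of tumors over treated skin on the horizontal axis and the unadjusted p on a −log10 scale on the vertical axis; dotted lines mark a 2-fold change. Il24 has the smallest p, and 1152 red points lie to the right against 1612 blue points to the left.

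Levels are given as CPM, the counts of a gene relative to the total of its library after adjustment for composition, and log2 fold changes as tumor over treated skin. The gene with the smallest p was Il24, which encodes a cytokine of the IL-10 family made by activated keratinocytes. Il24 stood at 0.670, 0.433 and 0.271 CPM in treated skin and 109, 152 and 115 CPM in tumors, near absence in one group and a clear signal in the other (log2 fold change 7.99, SE 0.34, adjusted p = 0.000193). Nrg1, which encodes the ERBB receptor ligand neuregulin 1, was at 26.3, 22.1 and 27.5 CPM in treated skin and 355, 554 and 448 CPM in tumors (log2 fold change 4.16, SE 0.24, adjusted p = 0.000446). In both genes the lowest tumor library lay far above the highest treated library. Also among the 12 smallest p that rose were Pxdc1, Cxcl1, Cdhr1, Tinagl1, Clcf1, Tubb6, Tspan12, Hmox1 and Tnnt2, with log2 fold changes from 2.71 (Tubb6) to 6.33 (Tspan12).

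The gene with the smallest p among those that fell was Dlx3, a homeobox factor of the hair follicle and of the differentiating epidermis. It stood at 171, 109 and 144 CPM in treated skin and 3.46, 5.24 and 2.36 CPM in tumors (log2 fold change -5.16, SE 0.34, adjusted p = 0.000589). Il11ra1, the receptor for interleukin 11, was at 37.4, 42.6 and 41.6 CPM in treated skin and 2.96, 1.95 and 3.03 CPM in tumors (log2 fold change -4.0, SE 0.27, adjusted p = 0.000649). In both genes every tumor lay far below every treated library. Lrig3, a member of a family of transmembrane proteins of which LRIG1 restrains EGF receptor signaling, fell by a smaller but even amount, from 108, 106 and 119.6 CPM in treated skin to 14.8, 18.7 and 16.5 CPM in tumors (log2 fold change -2.72, SE 0.19, adjusted p = 0.000709). Nrep, Gli2, Gm44313, Fzd2, Mycl, Cux1, Mertk, Arhgef19 and Ttyh3 completed the 12 smallest p, with log2 fold changes from -4.14 (Mycl) to -2.63 (Ttyh3). Gm44313 is annotated as a microRNA gene inside Trim17 and Hist3h2a on the opposite strand, and the use of strand in counting was not stated, so its reads may belong to those genes.

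The 41 gene lists that follow were chosen by function, and their counts stand beside the shares among all genes, 7.50% higher and 10.5% lower. Lists of growth factor ligands, cornified envelope precursors, glycolysis and detoxification held far larger shares of higher genes. Lists of hair follicle, WNT and hedgehog genes held larger shares of lower genes, and the proliferation list held almost no call.

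**Figure D2:**
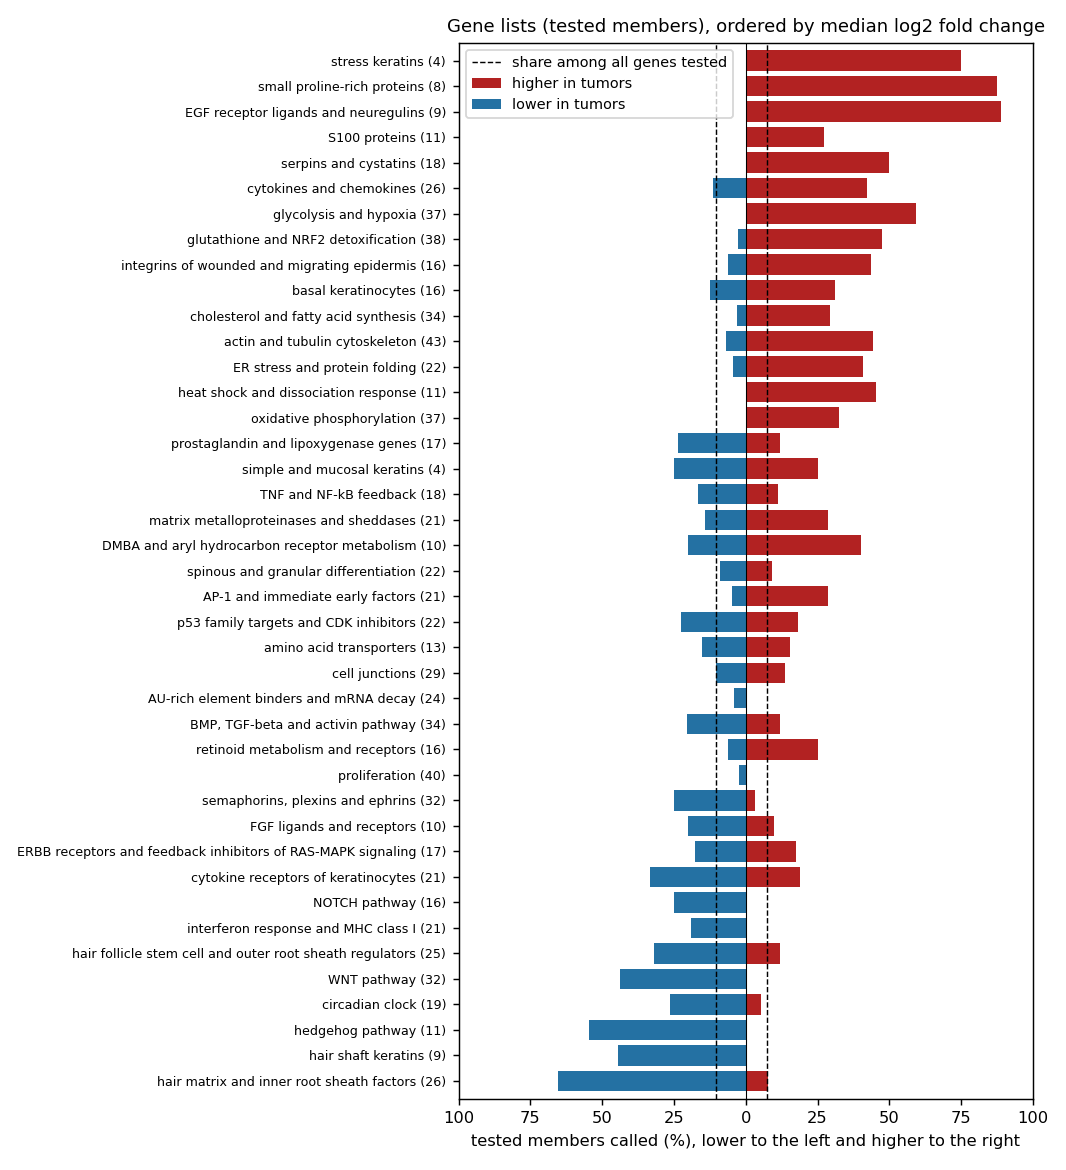
Bars give the percentage of tested members of each list that were called higher (right, red) or lower (left, blue) in tumors, with the number of tested members in parentheses and dashed lines at the shares among all genes tested, 7.50% and 10.5%. Lists are ordered by the median log2 fold change, from 3.93 for stress keratins at the top to -3.39 for hair matrix and inner root sheath factors at the bottom.

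Ligands of the EGF receptor family rose almost as a whole. Of 9 tested members, 8 were called higher and none lower, with a median log2 fold change of 3.01. With 1 library left out, 7 to 8 higher were called. Ereg, which encodes epiregulin, was at 0.893, 0.433 and 3.93 CPM in treated skin and 325, 237 and 239 CPM in tumors (log2 fold change 7.17, SE 0.62, adjusted p = 0.00116). Areg, which encodes amphiregulin, was at 15.6, 17.3 and 16.4 CPM in treated skin and 309.8, 139.8 and 155 CPM in tumors (log2 fold change 3.61, SE 0.34, adjusted p = 0.00121). Tgfa, the transforming growth factor alpha, was at 20.1, 14.1 and 10.8 CPM in treated skin and 107, 234 and 151 CPM in tumors (log2 fold change 3.45, SE 0.36, adjusted p = 0.00176). The 3 ligands shared a pattern in which tumor levels were several times the treated level in every tumor, and Ereg had the lowest level of the 3 in treated skin. Hbegf, the heparin-binding ligand, rose with a log2 fold change of 2.51, Epgn (epigen) with 3.01, Nrg1 with 4.16 and Nrg2 with 2.67. Btc, which encodes betacellulin, was called at a low level, 2.46, 1.73 and 1.36 CPM in treated skin and 2.96, 8.09 and 4.71 CPM in tumors (log2 fold change 1.56, SE 0.47, adjusted p = 0.0461), and the call was lost without treated replicate 1, 2 or 3 or tumor replicate 2 or 3 (adjusted p 0.0916 to 0.177) and under a single fit of all libraries (adjusted p = 0.0625). The Btc call was also lost with replicate number as a block (adjusted p = 0.143). Nrg4 was not called, at 12.3, 13.6 and 8.41 CPM in treated skin and 8.89, 17.8 and 25.6 CPM in tumors (log2 fold change 0.63, SE 0.39, adjusted p = 0.257). Egf itself was too low to test, at no more than 1.76 CPM in any library.

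The receptors and the inhibitors of the same pathway did not move in 1 direction. Of 17 tested members, 3 were called higher and 3 lower, and the median log2 fold change was -0.25. Leaving out each library in turn gave 2 to 5 higher (5 without treated replicate 3). Erbb2, the co-receptor shared by ligand-bound receptors, fell from 94, 91.7 and 93.3 CPM in treated skin to 46.4, 44.2 and 33 CPM in tumors (log2 fold change -1.17, SE 0.19, adjusted p = 0.00595). Egfr, the EGF receptor, was not called, at 435, 359.7 and 373 CPM in treated skin and 212, 318 and 285 CPM in tumors (log2 fold change -0.52, SE 0.21, adjusted p = 0.0996). Among the inhibitors, Spry2 rose (log2 fold change 2.11, SE 0.19, adjusted p = 0.00118) while its paralog Spry1 fell (log2 fold change -1.95, SE 0.22, adjusted p = 0.00191). Spry2 was at 26.5, 29 and 25.1 CPM in treated skin and 135, 105 and 107 CPM in tumors, and Spry1 at 43.3, 46.3 and 49.2 CPM in treated skin and 9.39, 12.1 and 14.1 CPM in tumors, so the paired sprouty genes changed in opposite directions with no overlap between groups. Dusp5, a phosphatase that inactivates ERK in the nucleus, rose with a log2 fold change of 1.51. Dusp4 rose with 3.10 in the fit of all 6 libraries, a call lost without treated replicate 1 (adjusted p = 0.0613). Dusp6, the cytoplasmic ERK phosphatase, was not called (log2 fold change 0.93, SE 0.41, adjusted p = 0.132), and was called without treated replicate 3 (log2 fold change 1.54, adjusted p = 0.0283).

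Among AP-1 and immediate early factors, 6 of 21 tested members were called higher and 1 lower, with a median log2 fold change of 0.16. Across fits that each omitted 1 library, the calls were 3 to 5 higher (3 without treated replicate 1 or 2) and 0 to 4 lower (0 without treated replicate 2 or tumor replicate 2, 4 without tumor replicate 1). Fosl1, the AP-1 subunit FRA-1, was at 57.9, 83.1 and 72.7 CPM in treated skin and 383, 330.3 and 357 CPM in tumors (log2 fold change 2.33, SE 0.20, adjusted p = 0.00116). Mafk, a small partner protein of NRF2 and BACH factors, rose (log2 fold change 1.32, SE 0.20, adjusted p = 0.00514), as did Klf6 (log2 fold change 1.20, SE 0.19, adjusted p = 0.00606). The tumor levels of Fosl1 were close to each other and far from all treated libraries. Jun passed the adjusted p but not the 2-fold threshold, at 1283, 1512 and 1153 CPM in treated skin and 691, 743 and 760.3 CPM in tumors (log2 fold change -0.85, SE 0.19, adjusted p = 0.0186). Fos did not pass, at 1178, 1610.1 and 882 CPM in treated skin and 1432, 435 and 677 CPM in tumors (log2 fold change -0.53, SE 0.44, adjusted p = 0.399), and was called without tumor replicate 1 (log2 fold change -1.15, adjusted p = 0.0173). Egr1 lay on the fold threshold (log2 fold change -1.0, SE 0.24, adjusted p = 0.0211), and its call held in 3 of 14 alternatives.

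Cytokines and chemokines held 11 higher and 3 lower genes among 26 tested members, with a median log2 fold change of 1.60. When any 1 library was omitted, the counts were 9 to 13 higher and 1 to 4 lower (1 without treated replicate 1 or 2 or tumor replicate 2). Cxcl1, a neutrophil-attracting chemokine, was at 10.9, 12.1 and 18.3 CPM in treated skin and 234, 273 and 277 CPM in tumors (log2 fold change 4.24, SE 0.25, adjusted p = 0.000446). Its neighbor in function, Cxcl2, was at 0.893, 0.865 and 1.63 CPM in treated skin and 50.4, 83.2 and 309 CPM in tumors (log2 fold change 6.99, SE 0.84, adjusted p = 0.00243). Clcf1, a cytokine of the IL-6 family, was at 2.90, 3.24 and 5.42 CPM in treated skin and 87, 86.9 and 82.8 CPM in tumors (log2 fold change 4.46, SE 0.28, adjusted p = 0.000532). Levels of Cxcl1 and Clcf1 hardly differed among tumors, whereas Cxcl2 differed 6-fold between tumor replicates 1 and 3. Csf3, which encodes the granulocyte colony-stimulating factor, was at 0, 0 and 0.678 CPM in treated skin and 40.5, 19.6 and 45.4 CPM in tumors (log2 fold change 7.06, SE 0.79, adjusted p = 0.00193), from 5 counts in all treated libraries together. Il19, a relative of Il24 that was chosen after its values were seen, was at 0.335, 0 and 0 CPM in treated skin and 33.1, 40.2 and 8.75 CPM in tumors with 3 counts in treated skin. Vegfa and Ccl2, chosen in the same way, rose with log2 fold changes of 1.97 and 3.13. Il1b was too low to test, at no more than 1.08 CPM.

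The 3 cytokines that fell are known as products of resting epidermis. Ccl27a, a chemokine of the steady-state epidermis that attracts skin-homing T cells, fell from 50.8, 91.3 and 35.3 CPM in treated skin to 2.47, 4.80 and 3.37 CPM in tumors (log2 fold change -3.96, SE 0.44, adjusted p = 0.00191). Cxcl14 fell (log2 fold change -1.63, SE 0.41, adjusted p = 0.0253), a call lost without treated replicate 1, 2 or 3 or tumor replicate 2 (adjusted p 0.0647 to 0.0858). Il34, the cytokine that maintains Langerhans cells, fell from 6.47, 7.79 and 3.25 CPM in treated skin to 1.98, 0.899 and 1.01 CPM in tumors (log2 fold change -2.28, SE 0.53, adjusted p = 0.0206), and this call was lost without treated replicate 1 or 2 or tumor replicate 2 or 3 (adjusted p 0.0734 to 0.0894) and under a single fit of all libraries (adjusted p = 0.162). The Il34 call was also lost with replicate number as a block (adjusted p = 0.0548).

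Of 21 tested cytokine receptors, 4 were called higher and 7 lower. Il4ra, the receptor chain shared by IL-4 and IL-13, was at 34.5, 42.2 and 23.6 CPM in treated skin and 135, 182 and 134 CPM in tumors (log2 fold change 2.18, SE 0.26, adjusted p = 0.00241). Tnfrsf12a, the receptor of TWEAK, also rose (log2 fold change 1.89, SE 0.26, adjusted p = 0.00347). Il22ra1, a chain used by the receptors for IL-22 and IL-24, fell from 12.3, 17.1 and 14.6 CPM in treated skin to 2.47, 0.749 and 1.01 CPM in tumors (log2 fold change -3.58, SE 0.45, adjusted p = 0.00277). The cytokine Il24 and this receptor chain thus moved in opposite directions, with no overlap between groups in either. Tnfrsf19, a receptor of the TNF family that is enriched in hair follicles, fell from 146, 148 and 47.9 CPM in treated skin to 7.90, 7.19 and 6.40 CPM in tumors (log2 fold change -4.0, SE 0.47, adjusted p = 0.00227). Fits without 1 library called 3 to 6 higher and 4 to 7 lower (4 without treated replicate 1 or 2 or tumor replicate 2).

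Some matrix metalloproteinases that cut collagen and other matrix proteins went from near absence to clear expression. Mmp13, a collagenase, was at 0.670, 0.433 and 0.136 CPM in treated skin and 159, 76.7 and 47.8 CPM in tumors (log2 fold change 7.71, SE 0.66, adjusted p = 0.00116). Mmp3, the stromelysin that also activates collagenases, was at 0.446, 0.649 and 0.271 CPM in treated skin and 124, 40.2 and 39 CPM in tumors (log2 fold change 7.20, SE 0.68, adjusted p = 0.00121). Mmp10, the second stromelysin, had no count in treated skin and stood at 51.4, 22.0 and 29.6 CPM in tumors, at least 74.1-fold higher when treated libraries are set at 3 counts each (adjusted p = 0.00172). All 3 genes were highest in tumor replicate 1, and all 3 tumors exceeded every treated library. Mmp1b had no count in treated skin and 3.37 to 4.94 CPM in tumors (at least 8.56-fold, adjusted p = 0.00451). Mmp12, outside the list and chosen after its values were seen, was at 0.781, 0 and 0 CPM in treated skin and 10.9, 15.3 and 13.1 CPM in tumors, with 7 counts in treated replicate 1 and none in the others, and overlaps Mmp1b on the opposite strand, so reads in the overlap may belong to either gene.

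These genes lie in a cluster on chromosome 9 (GRCm38), with Mmp13 at 7272514 to 7283331, Mmp12 at 7344381 to 7369499, Mmp1b at 7368239 to 7388047, Mmp3 at 7445822 to 7455975 and Mmp10 at 7502352 to 7510240. Mmp1a, between Mmp3 and Mmp10, and Mmp8 and Mmp27, beyond Mmp10, had too few counts to be tested. The promoters of Mmp13, Mmp3, Mmp10 and Mmp1b in RefSeq (GRCm38.p6), read from 250 bases before to 50 bases after the start, hold the sequence TGACTCA or its reverse complement TGAGTCA, the letters bound by AP-1, as do 1 of the 2 promoters of Mmp12 and that of the untested Mmp1a. Those of Mmp8 and Mmp27 do not. The following windows show the match in capitals for Mmp13, Mmp3, Mmp10, Mmp1b and Srxn1, an antioxidant gene described below, as examples.
Mmp13, chr9:7272469-7272495, plus strand: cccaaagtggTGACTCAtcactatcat
Mmp3, chr9:7445766-7445792, plus strand: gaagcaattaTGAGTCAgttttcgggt
Mmp10, chr9:7502269-7502295, plus strand: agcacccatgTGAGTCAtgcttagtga
Mmp1b, chr9:7388103-7388129, minus strand: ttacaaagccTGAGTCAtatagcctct
Srxn1, chr2:152105412-152105438, plus strand: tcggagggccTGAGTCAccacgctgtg
Srxn1, chr2:152105469-152105495, plus strand: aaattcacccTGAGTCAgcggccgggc

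The first base of the motif lay 35 bases before the start in Mmp13, 46 in Mmp3, 63 in Mmp10 and 93 in Mmp1b. Of the 1152 higher genes, 723 matched the promoter table by symbol, and 68 of them (9.41%) held the motif on either strand. The share was 4.73% among 1037 matched lower genes, 4.28% among 8148 matched genes that were not called, and 5.95% among all 27025 genes of the table. Among the 81 matched higher genes that could be named by the rule used here, 11 held it, and these also included Bag3, Hspa5, Prdx1, Msmo1, Sprr2h and Slc6a14. The call of Slc6a14 was lost without treated replicate 1, 2 or 3 (adjusted p 0.0523 to 0.0689). A match describes the letters in this window and does not show binding.

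The list of matrix proteases, their inhibitors and sheddases held 6 higher and 3 lower genes among 21 tested members. The counts became 5 to 7 higher and 1 to 3 lower (1 without treated replicate 1 or 3 or tumor replicate 3) when 1 library was left out. Mmp2, a further metalloproteinase, was called lower, with log2 fold changes of -2.11 to -1.59 over the fits run. Its call was lost under a single fit of all libraries (adjusted p = 0.0577). Among the lower genes, 2 encode inhibitors. Timp3 fell from 344, 265 and 470.5 CPM in treated skin to 29.1, 118 and 109 CPM in tumors (log2 fold change -2.06, SE 0.48, adjusted p = 0.0203), and Timp2 from 72.8, 81.8 and 92.2 CPM in treated skin to 7.41, 34.5 and 33 CPM in tumors (log2 fold change -1.68, SE 0.46, adjusted p = 0.0326). The Timp3 call was lost without treated replicate 1 or 3 or tumor replicate 3 (adjusted p 0.0524 to 0.0702), and that of Timp2 without treated replicate 1, 2 or 3 or tumor replicate 3 (adjusted p 0.0666 to 0.0986). Adam10, a sheddase that releases EGF receptor ligands from the membrane, was not called (log2 fold change 0.41, SE 0.23, adjusted p = 0.216).

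Stress keratins, which mark wounded and hyperproliferative epidermis, rose in 3 of 4 cases, with 3 called with each library left out in turn. Krt6a was at 170.4, 145 and 153 CPM in treated skin and 4668, 1313 and 998 CPM in tumors (log2 fold change 3.89, SE 0.60, adjusted p = 0.00514). Krt16 was at 72.9, 88 and 60.2 CPM in treated skin and 2485, 501 and 492 CPM in tumors (log2 fold change 3.97, SE 0.68, adjusted p = 0.00740). Krt6b was at 14.6, 16.7 and 11.5 CPM in treated skin and 1885, 224 and 187 CPM in tumors (log2 fold change 5.75, SE 0.99, adjusted p = 0.00756), for which DESeq2 gave no adjusted p. The order of the tumors was the same in all 3 genes, with tumor replicate 1 several times above the others. Krt17 passed the adjusted p but not the 2-fold threshold (log2 fold change 0.78, SE 0.23, adjusted p = 0.0398). Krt6a and Krt6b have near-identical sequences, so the split of reads between them is uncertain. Gm44383, annotated as a microRNA gene inside Krt6b on the opposite strand, rose from 1.45 to 1.63 CPM to 32.6 to 394 CPM, and its reads may be those of Krt6b.

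Small proline-rich proteins, which are cross-linked into the cornified envelope, rose in 7 of 8 tested members with a median log2 fold change of 3.81. Omission of 1 library at a time gave 4 to 8 higher (4 without treated replicate 1, 2 or 3 or tumor replicate 3). Sprr1b was at 3.35, 1.30 and 0.271 CPM in treated skin and 172, 27.1 and 41.1 CPM in tumors (log2 fold change 5.50, SE 0.96, adjusted p = 0.00787). Sprr2h was at 0.335, 0 and 0 CPM in treated skin and 8.89, 3.75 and 5.05 CPM in tumors, with 3 counts in treated skin, and Sprr2g had 1 count in treated skin and 4.65 to 23.7 CPM in tumors. Sprr1b peaked in tumor replicate 1, and every tumor stood above every treated library. Sprr4 was not called (log2 fold change -0.85, SE 0.67, adjusted p = 0.375). Copies of the Sprr2 cluster are near identical, so their separate values are uncertain.

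Serpins and cystatins, inhibitors of proteases in the cornifying epidermis, held 9 higher and no lower genes among 18 tested members. With 1 library left out, 2 to 8 higher (2 without treated replicate 1, 3 without treated replicate 3, 5 without treated replicate 2) were called. Cstb, an inhibitor of lysosomal cathepsins, was at 101, 104 and 83.1 CPM in treated skin and 315, 298 and 290.5 CPM in tumors (log2 fold change 1.65, SE 0.17, adjusted p = 0.00172). Stfa1, one of the clustered stefins, was at 8.59, 13.2 and 1.63 CPM in treated skin and 433, 99.1 and 108 CPM in tumors (log2 fold change 4.80, SE 0.86, adjusted p = 0.00846). Cstb differed little among tumors, while Stfa1 was highest in tumor replicate 1. Of 11 tested S100 genes, 3 rose and none fell. Leaving out each library in turn gave 3 to 5 higher (5 without tumor replicate 2). S100a8 was at 1.34, 2.60 and 0.814 CPM in treated skin and 119.6, 45.4 and 127 CPM in tumors (log2 fold change 6.0, SE 0.56, adjusted p = 0.00121). Its partner S100a9 was at 0.670, 1.51 and 0.407 CPM in treated skin and 110.2, 25 and 45.8 CPM in tumors (log2 fold change 6.19, SE 0.72, adjusted p = 0.00226). Both encode subunits of calprotectin, an alarmin made by stressed keratinocytes and by neutrophils.

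Differentiation genes of the spinous and granular layers were called about as often as all genes (18.2% against 18.0%), with 2 of 22 tested members higher, 2 lower and a median log2 fold change of 0.22. Across fits that each omitted 1 library, the calls were 2 to 5 higher (5 without tumor replicate 1). Krt1 was at 1111, 2072 and 318 CPM in treated skin and 1036, 505 and 1257 CPM in tumors (log2 fold change -0.32, SE 0.61, adjusted p = 0.721), and Krt10 at 1209, 2369.7 and 373 CPM in treated skin and 397, 248 and 957 CPM in tumors (log2 fold change -1.30, SE 0.69, adjusted p = 0.196). Without treated replicate 2 the log2 fold change of Krt1 was 0.39 and that of Krt10 -0.56, and without tumor replicate 3 that of Krt10 was -2.01. Krt10 was called lower without a low-count filter (log2 fold change -1.37, adjusted p = 0.00011). Both keratins of the spinous layer varied several-fold within treated skin, and the groups overlapped. Tgm1, the transglutaminase that cross-links the cornified envelope, rose (log2 fold change 1.78, SE 0.22, adjusted p = 0.00249), as did Grhl3, a factor that drives barrier formation (log2 fold change 2.19, SE 0.27, adjusted p = 0.00253). Dsg1a, a desmosomal cadherin of the upper epidermis, fell from 396, 486 and 293 CPM in treated skin to 116, 72.2 and 146 CPM in tumors (log2 fold change -1.82, SE 0.31, adjusted p = 0.00697; call lost under a single fit of all libraries (adjusted p = 0.0552)). Krt77, a keratin of the adult interfollicular epidermis and eccrine ducts, had the largest fold among lower genes with at least 50 CPM in treated skin, at 343, 825 and 157 CPM in treated skin and 2.47, 4.05 and 6.40 CPM in tumors (log2 fold change -6.65, SE 0.72, adjusted p = 0.00186).

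Genes of basal cells and of their anchorage to the basement membrane rose in part. Of 16 basal genes, 5 were called higher and 2 lower. When any 1 library was omitted, the counts were 1 to 4 higher (1 without treated replicate 1, 2 without treated replicate 3, 3 without treated replicate 2) and 0 to 2 lower (0 without treated replicate 2 or tumor replicate 2 or 3, 1 without treated replicate 1). Lama3, a chain of laminin 332, was at 181, 194 and 214 CPM in treated skin and 784, 465 and 515 CPM in tumors (log2 fold change 1.58, SE 0.24, adjusted p = 0.00492). Krt14 was at 2426, 3315 and 1621 CPM in treated skin and 15452, 3798 and 4276 CPM in tumors (log2 fold change 1.68, SE 0.58, adjusted p = 0.0669), and Krt5 at 2912, 4209.9 and 2363 CPM in treated skin and 11934, 2569 and 2882 CPM in tumors (log2 fold change 0.87, SE 0.59, adjusted p = 0.305). Krt14 and Krt5 were not called, and in both tumor replicate 1 alone stood far above treated skin. Without it the log2 fold change was 0.71 for Krt14 and -0.22 for Krt5. With every library kept, Krt14 was called higher with DESeq2 (adjusted p = 0.0138), with edgeR's exact test (adjusted p = 0.0176) and without a low-count filter (adjusted p = 2.33e-06). Krt5 was called under none of the alternatives run. Krt15, a keratin of quiescent basal and bulge cells, fell from 363, 774 and 301 CPM in treated skin to 185, 86.2 and 127 CPM in tumors (log2 fold change -1.86, SE 0.42, adjusted p = 0.0188), a call lost without treated replicate 2 or tumor replicate 2 or 3 (adjusted p 0.0539 to 0.0675) and under a single fit of all libraries (adjusted p = 0.0949). Of 16 genes linked to migrating epidermis, 7 rose and 1 fell. Fits without 1 library called 7 to 8 higher and 1 to 2 lower (2 without tumor replicate 1). Itga5, a subunit of the fibronectin receptor, was at 10.5, 8.0 and 11 CPM in treated skin and 53.4, 126 and 101 CPM in tumors (log2 fold change 3.25, SE 0.34, adjusted p = 0.00176). Cd44, a hyaluronan receptor, was at 666, 616 and 529 CPM in treated skin and 1959, 1842 and 1971 CPM in tumors (log2 fold change 1.67, SE 0.19, adjusted p = 0.00221). Fn1, fibronectin itself, fell from 155, 76.8 and 70.5 CPM in treated skin to 7.90, 10.3 and 2.69 CPM in tumors (log2 fold change -3.80, SE 0.50, adjusted p = 0.00313).

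Hair follicle genes had the lowest median of the 41 lists. Of 26 tested factors and keratins of the hair matrix and inner root sheath, 17 fell and 2 rose, with a median log2 fold change of -3.39. The counts became 1 to 3 higher (1 without treated replicate 2 or 3) and 16 to 18 lower when 1 library was left out. A single fit of all libraries called 8 of them lower. Krt71, a keratin of the inner root sheath, was at 196, 169 and 272 CPM in treated skin and 3.46, 7.19 and 1.01 CPM in tumors (log2 fold change -5.60, SE 0.53, adjusted p = 0.00121; call lost under a single fit of all libraries (adjusted p = 0.0659)). Tchh, which encodes trichohyalin, was at 425, 392 and 728 CPM in treated skin and 28.7, 37.2 and 12.1 CPM in tumors (log2 fold change -4.29, SE 0.46, adjusted p = 0.00177). Msx2, a homeobox factor of the matrix, was at 74.3, 47.6 and 64.5 CPM in treated skin and 2.47, 2.10 and 0.337 CPM in tumors (log2 fold change -5.21, SE 0.45, adjusted p = 0.00116). All 3 genes were high in every treated library and far lower in every tumor. Hoxc13 and Lef1, chosen after their values were seen, fell with log2 fold changes of -4.63 and -4.73. Prdm1, the repressor BLIMP1, rose (log2 fold change 2.69, SE 0.25, adjusted p = 0.00119), and so did Eda2r (log2 fold change 3.38, SE 0.70, adjusted p = 0.0137). The Eda2r call was lost without treated replicate 2 or 3 (adjusted p 0.0579 to 0.0609) and with replicate number as a block (adjusted p = 0.0512).

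The level of these follicle genes also differed widely among mock libraries. Krt71 ranged from 0.387 to 574 CPM over the 3 mock fl/fl libraries, Dlx3 from 1.35 to 214 CPM and Tchh from 9.43 to 617 CPM (CPM scaled over all libraries). For Krt71 and Dlx3 the highest mock library exceeded all treated libraries, and for all 3 genes the lowest mock library lay below the tumors. The part of hair cycle stage in the difference between tumors and treated skin was not tested. The hair shaft keratins pointed the same way, with 4 of 9 tested members lower, none higher and a median log2 fold change of -2.48. Omission of 1 library at a time gave 1 to 7 lower (1 without treated replicate 1, 2 or 3, 2 without tumor replicate 3, 7 without tumor replicate 1).

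Among 25 tested regulators of follicle stem cells and the outer root sheath, 8 fell and 3 rose. Lhx2, a LIM homeobox factor of follicle stem cells, was at 58.7, 53.4 and 56.5 CPM in treated skin and 0.494, 3.30 and 0 CPM in tumors (log2 fold change -5.02, SE 0.64, adjusted p = 0.00284). Lgr5, a receptor for R-spondins that marks cycling follicle stem cells, was at 116, 124 and 136 CPM in treated skin and 2.47, 15.3 and 16.2 CPM in tumors (log2 fold change -3.39, SE 0.49, adjusted p = 0.00396). Both were lower in each tumor, and Lgr5 was lowest in tumor replicate 1. The log2 fold change of Lhx2 without tumor replicate 2 was -7.96. Sox9, a factor of the outer root sheath that also drives skin tumors, moved the other way, at 158, 142 and 135 CPM in treated skin and 334, 444 and 692 CPM in tumors (log2 fold change 1.76, SE 0.28, adjusted p = 0.00569). Fst, which encodes the activin antagonist follistatin, was at 53.8, 70.7 and 73.6 CPM in treated skin and 648, 397 and 377 CPM in tumors (log2 fold change 2.84, SE 0.28, adjusted p = 0.00132). Lmo1 rose (log2 fold change 1.64, SE 0.31, adjusted p = 0.0108), a call lost without treated replicate 1 (adjusted p = 0.0516) and under a single fit of all libraries (adjusted p = 0.148). With 1 library left out, 2 to 5 higher (5 without tumor replicate 1) and 5 to 10 lower (5 without treated replicate 1 or tumor replicate 3) were called.

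**Figure D3:**
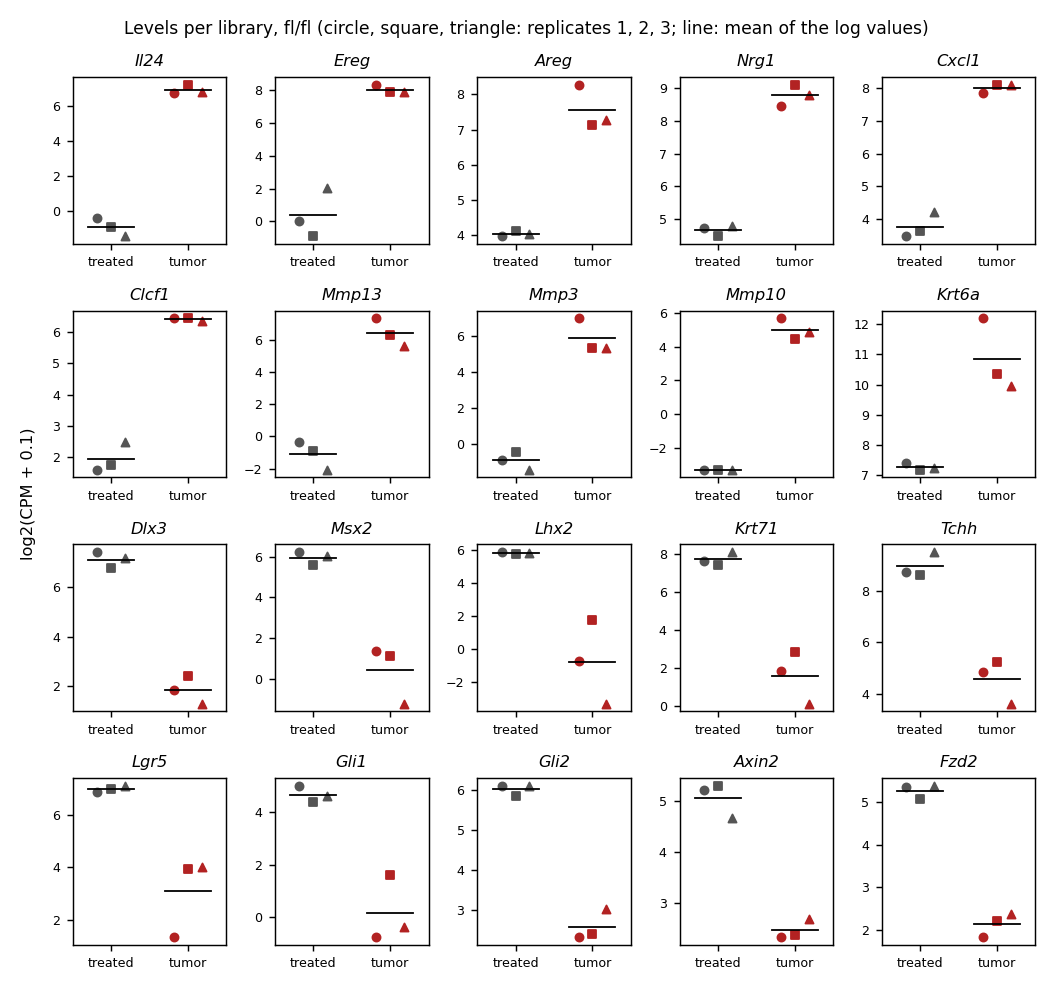
Each panel shows 1 gene, with log2(CPM + 0.1) on the vertical axis, treated skin in grey and tumors in red; symbols stand for replicates and the line for the mean of the log values. The ligands, cytokines, proteases and stress keratin of the upper panels sit higher in all 3 tumors, and the follicle, hedgehog and WNT genes of the lower panels sit lower in all 3.

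Hedgehog genes stood lower throughout. Of 11 tested members, 6 were called lower and none higher, all 11 stood lower in every tumor than in every treated library (25.0% of all genes did so), and the median log2 fold change was -1.34. Leaving out each library in turn gave 5 to 8 lower. Shh, the ligand made by the hair matrix, was at 22.2, 7.57 and 5.56 CPM in treated skin and 0.494, 0.150 and 0.337 CPM in tumors, with 3 counts over the tumors (adjusted p = 0.00586). Gli1, a transcription factor and a target of the pathway, was at 32.1, 20.8 and 24.3 CPM in treated skin and 0.494, 3.0 and 0.673 CPM in tumors (log2 fold change -3.87, SE 0.52, adjusted p = 0.00317). Gli2, the main activator, was at 68.8, 58 and 68.9 CPM in treated skin and 4.94, 5.24 and 8.08 CPM in tumors (log2 fold change -3.42, SE 0.25, adjusted p = 0.000981). The ligand, the receptor and target Ptch1 (log2 fold change -2.66, SE 0.31, adjusted p = 0.00235) and both factors thus stood far lower in tumors. Sufu, the inhibitor that holds GLI proteins in the cytoplasm, and Gas1, a co-receptor, did not pass, with log2 fold changes of -0.60 and -0.34.

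The WNT list held 14 lower and no higher genes among 32 tested members, with a median log2 fold change of -0.69. Across fits that each omitted 1 library, the calls were 7 to 16 lower (7 without treated replicate 1, 9 without treated replicate 3 or tumor replicate 3). Axin2, a feedback inhibitor whose transcription reports β-catenin activity, was at 37.1, 39.1 and 25.2 CPM in treated skin and 4.94, 5.10 and 6.40 CPM in tumors (log2 fold change -2.62, SE 0.27, adjusted p = 0.00172). Rnf43, which removes frizzled receptors from the surface, was at 44.5, 36.3 and 33.8 CPM in treated skin and 9.39, 6.89 and 6.06 CPM in tumors (log2 fold change -2.38, SE 0.25, adjusted p = 0.00176). Fzd2, a receptor, was at 40.5, 33.5 and 41.6 CPM in treated skin and 3.46, 4.50 and 5.05 CPM in tumors (log2 fold change -3.13, SE 0.24, adjusted p = 0.00102). In these targets and receptors the 3 tumors were close to each other and below all treated libraries. Fzd10 fell too (log2 fold change -2.53, SE 0.35, adjusted p = 0.00347). Lrp6, the co-receptor, was not called (log2 fold change -0.52, SE 0.27, adjusted p = 0.192). Of 16 NOTCH genes, 4 fell and none rose. When any 1 library was omitted, the counts were 1 to 5 lower (1 without treated replicate 1, 2 without treated replicate 3 or tumor replicate 2 or 3). Heyl, a NOTCH target, fell from 5.58, 6.06 and 6.51 CPM in treated skin to 0.988, 1.05 and 1.35 CPM in tumors (log2 fold change -2.40, SE 0.38, adjusted p = 0.00566; call lost under a single fit of all libraries (adjusted p = 0.236)). Jag1, a ligand, was not called (log2 fold change 0.61, SE 0.20, adjusted p = 0.0558).

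Of 34 tested genes of BMP, TGF-β and activin signaling, 4 rose and 7 fell. Inhba, the subunit of activin A, was at 6.59, 4.54 and 7.73 CPM in treated skin and 75.1, 101 and 53.5 CPM in tumors (log2 fold change 3.59, SE 0.32, adjusted p = 0.00119). Its antagonist Fst and the receptor Tgfbr2 (log2 fold change 1.42, SE 0.22, adjusted p = 0.00547) rose as well, and so did the ligand Tgfb3 (log2 fold change 2.12, SE 0.38, adjusted p = 0.00862). Id4, an inhibitor of differentiation induced by BMP, was at 51.6, 59.5 and 93.3 CPM in treated skin and 8.40, 9.14 and 8.08 CPM in tumors (log2 fold change -2.98, SE 0.29, adjusted p = 0.00130). Acvr1b, an activin receptor, fell (log2 fold change -1.37, SE 0.18, adjusted p = 0.00286), as did Inhbb, the subunit of activin B (log2 fold change -1.37, SE 0.21, adjusted p = 0.00496). The 2 activin subunits therefore moved in opposite directions. Of 10 tested FGF genes, 1 rose and 2 fell. Fits without 1 library called 0 to 1 higher (0 without treated replicate 1, 2 or 3 or tumor replicate 3) and 1 to 3 lower (1 without tumor replicate 3). Fgf5, which ends the growth phase of the hair cycle, stood at 8.82, 10.2 and 24.3 CPM in treated skin and had 1 count over the 3 tumors (adjusted p = 0.00243; call lost under a single fit of all libraries (adjusted p = 0.0648)). Fgfr2, the receptor for keratinocyte growth factor, fell (log2 fold change -1.09, SE 0.18, adjusted p = 0.00632; call lost without tumor replicate 3 (adjusted p = 0.0353, with a fold under 2)).

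Glycolysis and hypoxia genes rose broadly. Of 37 tested members, 22 were called higher and none lower, with a median log2 fold change of 1.41. The counts became 9 to 25 higher (9 without treated replicate 1, 12 without treated replicate 2, 13 without treated replicate 3) when 1 library was left out. Hk2, the hexokinase that commits glucose to the cell, was at 90.3, 78.1 and 73.2 CPM in treated skin and 370.0, 411 and 333 CPM in tumors (log2 fold change 2.20, SE 0.18, adjusted p = 0.00116). Slc16a1, a lactate transporter, was at 62.3, 63.8 and 31.2 CPM in treated skin and 464, 530.3 and 535 CPM in tumors (log2 fold change 3.28, SE 0.30, adjusted p = 0.00121). Hif1a, the oxygen-regulated subunit of HIF-1, was at 199, 171 and 166 CPM in treated skin and 1329, 1022 and 814 CPM in tumors (log2 fold change 2.56, SE 0.24, adjusted p = 0.00121). Each of them was several times higher in every tumor. Car2, a carbonic anhydrase, rose from 2.38 to 6.59 CPM to 86.2 to 193 CPM (log2 fold change 4.96, SE 0.47, adjusted p = 0.00121). Genes of oxidative phosphorylation encoded in the nucleus also stood higher, by less, with 12 of 37 called higher, none lower and a median log2 fold change of 0.91. In 35 of the 37 all tumors exceeded all treated libraries (20.9% of all genes did so). Omission of 1 library at a time gave 5 to 19 higher (5 without treated replicate 1, 19 without tumor replicate 2). Cox7b, a subunit of cytochrome c oxidase, was at 63.8, 83.7 and 70.5 CPM in treated skin and 213, 157 and 241 CPM in tumors (log2 fold change 1.49, SE 0.22, adjusted p = 0.00430).

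Detoxification and antioxidant genes, many of them targets of the factor NRF2, held 18 higher and 1 lower genes among 38 tested members, with a median log2 fold change of 1.17. With 1 library left out, 7 to 18 higher (7 without treated replicate 1, 8 without treated replicate 3, 10 without treated replicate 2) and 0 to 1 lower (0 without treated replicate 1, 2 or 3 or tumor replicate 1 or 3) were called. Srxn1, which repairs oxidized peroxiredoxins, was at 5.58, 6.06 and 8.41 CPM in treated skin and 55.8, 194 and 253 CPM in tumors (log2 fold change 4.65, SE 0.56, adjusted p = 0.00246). Hmox1, the inducible heme oxygenase, was at 6.92, 8.44 and 8.95 CPM in treated skin and 60.3, 77.6 and 95.9 CPM in tumors (log2 fold change 3.27, SE 0.25, adjusted p = 0.00102). Prdx1, a peroxiredoxin, was at 252, 277 and 261 CPM in treated skin and 788, 608 and 643 CPM in tumors (log2 fold change 1.37, SE 0.18, adjusted p = 0.00322). The 3 genes rose in every tumor, Srxn1 most in tumor replicates 2 and 3. Gsta4, a glutathione transferase that clears lipid aldehydes, was at 1.34, 2.81 and 0.949 CPM in treated skin and 787, 23.1 and 20.5 CPM in tumors (log2 fold change 7.41, SE 1.70, adjusted p = 0.0192), so that most of its mean came from tumor replicate 1, and the call was lost without treated replicate 1, 2 or 3 (adjusted p 0.0633 to 0.0875). Without tumor replicate 1 its log2 fold change was 3.78, and DESeq2 gave no adjusted p. Pgd, an enzyme of the pentose phosphate pathway, rose with a log2 fold change of 1.58. Of 10 tested genes of the aryl hydrocarbon receptor, which senses DMBA and other polycyclic compounds, 4 rose and 2 fell. Leaving out each library in turn gave 2 to 4 higher (2 without treated replicate 1) and 0 to 2 lower (0 without treated replicate 1, 2 or 3, 1 without tumor replicate 2). Tiparp, a target of that receptor, was at 112, 136 and 132 CPM in treated skin and 539, 688 and 685 CPM in tumors (log2 fold change 2.33, SE 0.20, adjusted p = 0.00116), while Cyp1b1, the enzyme that activates DMBA, fell from 45.7, 57.3 and 56.3 CPM in treated skin to 0.988, 12 and 11.1 CPM in tumors (log2 fold change -2.62, SE 0.54, adjusted p = 0.0138; call lost without treated replicate 1, 2 or 3 (adjusted p 0.0513 to 0.0523)). Ahr itself was not called (log2 fold change -0.47, SE 0.32, adjusted p = 0.309).

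Of 22 tested genes of the endoplasmic reticulum stress response and protein folding, 9 rose and 1 fell. Across fits that each omitted 1 library, the calls were 0 to 1 lower (0 without treated replicate 1, 2 or 3 or tumor replicate 3). Atf4, a factor of the integrated stress response, was at 125, 131 and 149.8 CPM in treated skin and 349.8, 474 and 414 CPM in tumors (log2 fold change 1.61, SE 0.19, adjusted p = 0.00235). Asns, its target asparagine synthetase, rose with a log2 fold change of 1.81, and Hspa5, the chaperone BiP, with 1.48. Heat shock genes, which tissue dissociation can also induce, held 5 higher and no lower genes among 11, with a median log2 fold change of 0.95. Bag3, a co-chaperone, was at 49.3, 46.5 and 45.3 CPM in treated skin and 166, 171 and 226 CPM in tumors (log2 fold change 2.0, SE 0.19, adjusted p = 0.00121), and Hspd1, the mitochondrial chaperonin, rose with 1.55. The part of dissociation in these differences was not tested. Hspa1a and Hspa1b, near-identical genes whose reads cannot be split with certainty, were not called, with log2 fold changes of 0.68 and 0.95; Hspa1b was called without tumor replicate 1 (log2 fold change 1.04, adjusted p = 0.00243) and without tumor replicate 2 (log2 fold change 1.01, adjusted p = 0.0281).

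The actin and tubulin cytoskeleton held 19 higher and 3 lower genes among 43, with a median log2 fold change of 1.05. When any 1 library was omitted, the counts were 12 to 20 higher (12 without treated replicate 1 or 3) and 1 to 4 lower (1 without treated replicate 1). Tpm2, a tropomyosin, was at 49.9, 40.01 and 51.3 CPM in treated skin and 256, 225 and 289.8 CPM in tumors (log2 fold change 2.45, SE 0.19, adjusted p = 0.00102). Tubb6, a β-tubulin, was at 30.5, 24.7 and 30.4 CPM in treated skin and 164, 193 and 205 CPM in tumors (log2 fold change 2.71, SE 0.19, adjusted p = 0.000747). Cotl1, an actin-binding protein, rose with a log2 fold change of 2.77. Vim, which encodes the intermediate filament of mesenchymal cells, fell instead, from 51.7, 51.7 and 33.4 CPM in treated skin to 16.8, 10.04 and 3.37 CPM in tumors (log2 fold change -2.22, SE 0.47, adjusted p = 0.0153; call lost without treated replicate 1 or 2 (adjusted p 0.0580 to 0.0687)). Cell junction genes were mixed, with 4 of 29 higher and 3 lower. Fits without 1 library called 0 to 5 higher (0 without treated replicate 1, 2 or 3, 2 without tumor replicate 3) and 2 to 3 lower. Dsp, the desmosomal plakin, was not called (log2 fold change -0.22, SE 0.37, adjusted p = 0.677). Of 32 semaphorins, plexins and ephrin genes, 8 fell and 1 rose. The counts became 0 to 3 higher (0 without treated replicate 1, 2 without treated replicate 3, 3 without tumor replicate 1) and 3 to 11 lower (3 without tumor replicate 3, 4 without treated replicate 1, 5 without treated replicate 2 or tumor replicate 2) when 1 library was left out. Ephb6 fell from 80.5, 103 and 67.7 CPM in treated skin to 22.2, 20.8 and 20.5 CPM in tumors (log2 fold change -1.98, SE 0.22, adjusted p = 0.00186), and Epha1, another ephrin receptor, fell with a log2 fold change of -1.53.

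Few proliferation genes passed the test. Of 40 tested members, none was called higher and 1 lower (Ccnd2), with a median log2 fold change of -0.18. Mki67, the proliferation antigen Ki-67, was at 742, 331 and 283 CPM in treated skin and 485, 127 and 149.8 CPM in tumors (log2 fold change -0.84, SE 0.57, adjusted p = 0.308). The groups overlapped, with the highest treated library above the highest tumor. Ccnd2, which encodes cyclin D2, was at 717, 574 and 626 CPM in treated skin and 235, 339 and 279 CPM in tumors (log2 fold change -1.17, SE 0.21, adjusted p = 0.00795). Without tumor replicate 1, in which Mki67 was more than 3 times as high as in the other tumors, 11 of the 40 genes were called lower; Mki67 was called without tumor replicate 1 (log2 fold change -1.71, adjusted p = 0.0114). Cell cycle inhibitors split by gene. Cdkn1a, which encodes p21, was at 62.4, 69 and 77.3 CPM in treated skin and 220.3, 285 and 325 CPM in tumors (log2 fold change 1.99, SE 0.21, adjusted p = 0.00169), and Mdm2, the ubiquitin ligase of p53, was at 58.9, 64.2 and 92.7 CPM in treated skin and 237, 219 and 301 CPM in tumors (log2 fold change 1.81, SE 0.24, adjusted p = 0.00305). Cdkn1b, which encodes p27, fell from 108, 107 and 125 CPM in treated skin to 31.6, 39.1 and 40.1 CPM in tumors (log2 fold change -1.61, SE 0.18, adjusted p = 0.00193), and Sesn1 fell with a log2 fold change of -1.49. Trp53 itself was not called (log2 fold change -0.16, SE 0.16, adjusted p = 0.462). The p53 list as a whole held 4 higher and 5 lower genes among 22. 

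Zfp36 did not pass the threshold between treated skin and tumors. It was at 378, 498 and 265 CPM in treated skin and 227, 173 and 249 CPM in tumors (log2 fold change -0.81, SE 0.27, adjusted p = 0.0578), and the tumors lay below all treated libraries. Without treated replicate 3 it was called (log2 fold change -1.02, adjusted p = 0.0482). Its paralogs were not called, with log2 fold changes of 0.52 for Zfp36l1 and -0.34 for Zfp36l2, and Zfp36l3 had a count in 1 library. Of 24 tested binders of AU-rich elements and decay factors, Btg2, an adaptor of the deadenylase complex, was the one call, at 241, 331 and 278 CPM in treated skin and 48.9, 71.3 and 83.5 CPM in tumors (log2 fold change -2.06, SE 0.24, adjusted p = 0.00240). The heptamer TATTTAT, a core of such elements, occurred in the 3′ untranslated region (the longest one annotated) of 37.1% of the higher genes that had one, 31.5% of the lower genes and 30.3% of genes not called. Median lengths of these regions were 1221, 1391 and 1175 bases.

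In genes of lipid synthesis the tumors differed from each other. Of 34 tested genes of cholesterol and fatty acid synthesis, 10 rose and 1 fell. Omission of 1 library at a time gave 3 to 19 higher (3 without treated replicate 1, 2 or 3 or tumor replicate 3, 19 without tumor replicate 1) and 0 to 2 lower (0 without treated replicate 1, 2 or 3 or tumor replicate 2 or 3, 2 without tumor replicate 1). Msmo1, an enzyme of cholesterol synthesis, was at 97.9, 63.6 and 73.6 CPM in treated skin and 226, 285 and 333 CPM in tumors (log2 fold change 1.84, SE 0.24, adjusted p = 0.00286). All 3 tumors lay above every treated library. Scd1, a fatty acid desaturase, was at 625, 425 and 304 CPM in treated skin and 193, 3149.8 and 6243 CPM in tumors (log2 fold change 2.82, SE 0.97, adjusted p = 0.0677). Elovl6, a fatty acid elongase, was at 254, 148 and 107 CPM in treated skin and 47.4, 1003 and 1874 CPM in tumors (log2 fold change 2.52, SE 1.0, adjusted p = 0.0992). For Scd1 and Elovl6, tumor replicate 1 lay below all treated libraries and the other tumors far above them, and neither gene was called. The log2 fold change of Elovl6 without tumor replicate 3 was 1.66. Scd1 was called without tumor replicate 1 (log2 fold change 3.37, adjusted p = 0.000414) and Elovl6 without tumor replicate 1 (log2 fold change 3.07, adjusted p = 0.000731). With every tumor kept, Scd1 was also called with DESeq2 (adjusted p = 0.0429). Both genes were called with edgeR's exact test (adjusted p = 0.0146 for Scd1 and 0.0376 for Elovl6). Both were also called under a single fit of all libraries (adjusted p = 0.0164 and 0.0316) and without a low-count filter. Scd1 and Pparg, which stood at 10.7, 6.71 and 4.75 CPM in treated skin and 0.988, 58.9 and 86.2 CPM in tumors, are also markers of sebocytes, the lipid-secreting cells of the sebaceous gland. Pparg was called without tumor replicate 1 (log2 fold change 3.26, adjusted p = 0.000271). With every tumor kept, Pparg was called with edgeR's exact test (adjusted p = 0.0307) and without a low-count filter (adjusted p = 3.10e-09).

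**Figure D4:**
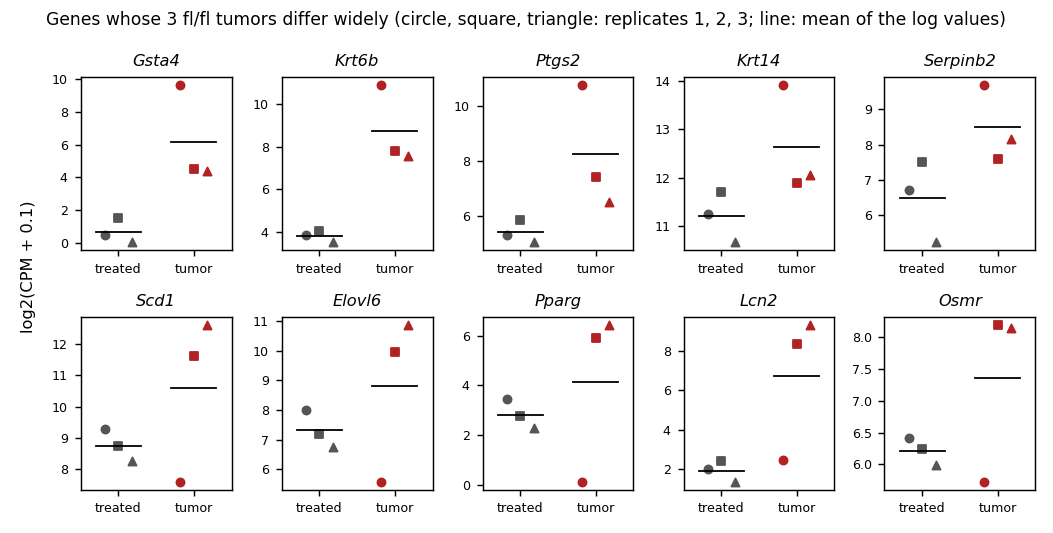
Levels of 10 genes chosen for their spread among tumors, as log2(CPM + 0.1) per library, with treated skin in grey, tumors in red and lines at the mean of the log values. In the upper panels tumor replicate 1 (circle) is the highest, as with Gsta4 at 787 CPM against 23.1 and 20.5; in the lower panels it is the lowest, as with Lcn2 at 5.43 CPM against 319 and 634.

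Among the 1152 higher genes, 110 differed more than 4-fold between the highest and lowest tumor (after adding 1 CPM to each level), whereas 7 did so among treated libraries. In 56 of those 110 the highest tumor was replicate 1, a share close to that among all 1152 higher genes, where it was the highest in 566. Ptgs2, the inducible cyclooxygenase, was at 40.2, 58.2 and 33.2 CPM in treated skin and 1749, 174 and 92.6 CPM in tumors (log2 fold change 3.94, SE 1.06, adjusted p = 0.0317), a call lost without treated replicate 1, 2 or 3 (adjusted p 0.0849 to 0.119) and with replicate number as a block (adjusted p = 0.0755). Its log2 fold change without tumor replicate 1 was 1.63. Of 17 tested prostaglandin and lipoxygenase genes, 2 rose and 4 fell. With 1 library left out, 1 to 6 higher (1 without treated replicate 1, 2 or 3, 6 without tumor replicate 1) and 2 to 6 lower (2 without treated replicate 1 or 3 or tumor replicate 2 or 3) were called. Ptges, the prostaglandin E synthase that acts after it, was at 17.7, 14.3 and 6.78 CPM in treated skin and 189.7, 87.8 and 54.2 CPM in tumors (log2 fold change 3.08, SE 0.53, adjusted p = 0.00754). Ptger4, a receptor for the product, fell from 82.2, 81.3 and 109 CPM in treated skin to 16.3, 19 and 15.5 CPM in tumors (log2 fold change -2.41, SE 0.21, adjusted p = 0.00117). The synthesis enzymes thus stood higher in each tumor and the receptor lower. Lcn2, an iron-binding innate defense protein, was at 3.91, 5.19 and 2.44 CPM in treated skin and 5.43, 319 and 634 CPM in tumors (log2 fold change 6.40, SE 1.37, adjusted p = 0.0152), a call lost without treated replicate 1, 2 or 3 (adjusted p 0.0580 to 0.0766) and with replicate number as a block (adjusted p = 0.0590). Osmr, the receptor for oncostatin M, was at 85.6, 75.7 and 63.5 CPM in treated skin and 52.9, 291 and 281 CPM in tumors and was not called (adjusted p = 0.0790). It was called without tumor replicate 1 (log2 fold change 1.93, adjusted p = 0.000176). With every tumor kept, it was called with DESeq2 (adjusted p = 0.0288), with edgeR's exact test (adjusted p = 0.0322) and without a low-count filter (adjusted p = 1.33e-05).

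Smaller groups gave the following. Of 19 circadian clock genes, 5 fell and 1 rose. Leaving out each library in turn gave 1 higher and 3 to 9 lower (3 without treated replicate 1, 9 without tumor replicate 1). Per1, a repressor of the clock, was at 81.3, 105 and 113 CPM in treated skin and 23.7, 22.2 and 23.6 CPM in tumors (log2 fold change -2.10, SE 0.20, adjusted p = 0.00121), Cry2 fell with a log2 fold change of -2.95, and Clock rose (log2 fold change 1.29, SE 0.17, adjusted p = 0.00315). The hour of collection was not stated in the sources used here, and its part was not tested. Of 21 tested interferon-response and MHC class I genes, 4 fell and none rose. Across fits that each omitted 1 library, the calls were 0 to 6 lower (0 without treated replicate 1 or 2, 1 without treated replicate 3 or tumor replicate 2, 2 without tumor replicate 3). H2-K1 and B2m, which form the MHC class I molecule, were not called, with log2 fold changes of 0.19 and 0.64. Of 18 NF-κB feedback genes, 2 rose and 3 fell. When any 1 library was omitted, the counts were 1 to 3 higher (1 without treated replicate 2 or 3) and 0 to 4 lower (0 without treated replicate 1, 2 or 3, 1 without tumor replicate 2 or 3). The list held Icam1, an adhesion molecule for leukocytes, at 54, 50.6 and 56.7 CPM in treated skin and 195, 148 and 134 CPM in tumors (log2 fold change 1.56, SE 0.20, adjusted p = 0.00275). Of 16 retinoid genes, 4 rose and 1 fell. Fits without 1 library called 2 to 4 higher (2 without treated replicate 1) and 1 to 4 lower (4 without tumor replicate 1). The smallest p in that list was that of Crabp2, a binding protein for retinoic acid, at 14.3, 6.49 and 5.15 CPM in treated skin and 96.3, 76.1 and 96.9 CPM in tumors (log2 fold change 3.35, SE 0.39, adjusted p = 0.00226).

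The identity of the sorted cells was checked with marker genes of the epidermis and of other cell types. The summed level of 8 keratinocyte markers was 7875 to 16888 CPM in treated skin and 11054 to 34374 CPM in tumors. Of these 8, 1 was called higher and none lower, against 7.50% and 10.5% of all genes tested. Among leukocyte genes, Ptprc stood at up to 1.48 CPM and Cd3e at 0 in all tumors, while some others had enough counts to be tested. The summed level of 13 leukocyte markers, S100a9 among them, was 18.0 to 45.3 CPM in treated skin and 50.5 to 151 CPM in tumors, and S100a9 was the called one of the 5 tested markers. The neutrophil and keratinocyte shares of S100a8 and S100a9 were not tested. The 7 fibroblast markers summed to 397 to 669 CPM in treated skin and 91.9 to 204 CPM in tumors, with Dcn, which encodes decorin, at 399, 203 and 171 CPM in treated skin and 5.93, 9.89 and 3.37 CPM in tumors (log2 fold change -5.25, SE 0.50, adjusted p = 0.00121). Without Dcn the sums of the other 6 were 194 to 288 CPM in treated skin and 88.5 to 195 CPM in tumors. Pdgfra, a growth factor receptor of fibroblasts, was the other marker called lower (log2 fold change -1.58, SE 0.47, adjusted p = 0.0444). The Pdgfra call was lost without treated replicate 1, 2 or 3 or tumor replicate 2 or 3 (adjusted p 0.0557 to 0.127). It was also lost under a single fit of all libraries (adjusted p = 0.140) and with replicate number as a block (adjusted p = 0.0828). Of the 7 fibroblast markers 5 were not called, among them Col1a1, a collagen (log2 fold change -0.79, SE 0.31, adjusted p = 0.0950). The 7 melanocyte markers summed to 67.0 to 146 CPM in treated skin and 12.8 to 37.0 CPM in tumors, with Dct at 50.3, 54.3 and 28.5 CPM in treated skin and 0, 8.54 and 0 CPM in tumors (log2 fold change -3.55, SE 0.92, adjusted p = 0.0279), all of it in tumor replicate 2. That call was lost without treated replicate 1, 2 or 3 or tumor replicate 3 (adjusted p 0.0586 to 0.0991) and under DESeq2's test (adjusted p = 0.140). Of 5 tested melanocyte markers, 2 were called lower, Dct among them, and none higher. The 6 endothelial markers summed to 17.1 to 22.7 CPM in treated skin and 25.9 to 49.1 CPM in tumors, and the 7 sebocyte markers to 317 to 652 CPM and 195 to 6520 CPM. Of 3 tested endothelial markers 1 was called higher, as was 1 of 5 tested sebocyte markers, and none was called lower. The part of these other cells in the differences reported above was not tested. Fn1, Vim, Timp2, Timp3 and Mmp2 are also expressed by fibroblasts.

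Most of the genes called in fl/fl mice pointed the same way between ΔK14 treated skin and ΔK14 tumors, which share no library with them. In ΔK14 mice 3973 of 15289 tested genes were called, 26.0%, with 1608 higher (10.5%) and 2365 lower (15.5%). Of the 1152 genes that were higher in fl/fl tumors, 1143 were tested in ΔK14, 717 (62.7%) were called higher there and 3 were called lower; the 717 made up 44.6% of the genes higher in ΔK14. Of the 1612 lower genes, 1455 were tested, 898 (61.7%) were called lower and 1 was called higher, and the 898 made up 38.0% of the genes lower in ΔK14. Il24 had a log2 fold change of 7.99 in fl/fl and 8.56 in ΔK14, Mmp13 of 7.71 and 9.26, Dlx3 of -5.16 and -5.21, and Gli2 of -3.42 and -2.13. The hair matrix list had a median of -3.39 in fl/fl and -3.02 in ΔK14. The lipid synthesis list had 1.06 and -0.21, with 2 of 33 tested members higher in ΔK14.

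**Figure D5:**
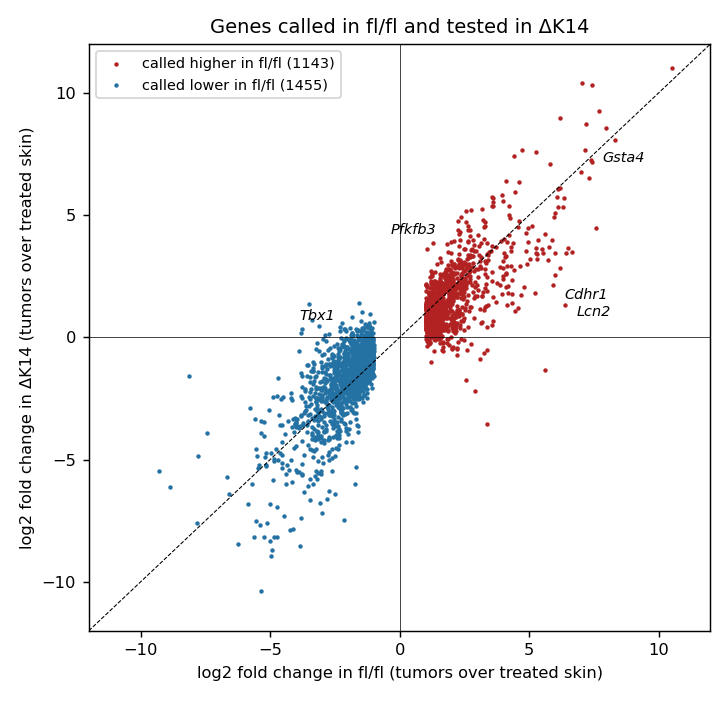
Each point is a gene called in fl/fl mice and tested in ΔK14 mice, with its log2 fold change of tumors over treated skin in fl/fl on the horizontal axis and in ΔK14 on the vertical axis; the dashed line marks equal change. Of the red points 1099 of 1143 lie above 0 on the vertical axis, and of the blue points 1396 of 1455 lie below it.

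The difference between the genotypes was itself tested as an interaction over the 12 libraries. It was called in 2 of 17017 genes (0.0118%), while 2243 (13.2%) had an unadjusted p under 0.05. Without any 1 of the treated libraries no gene was called. Without fl/fl tumor replicate 1 the number called was 1352, and genes without a call are not shown to respond alike. Tbx1, a T-box factor of follicle stem cells, fell in fl/fl tumors from 46.1, 49.1 and 47.3 CPM in treated skin to 8.40, 13.5 and 11.1 CPM in tumors and had a log2 fold change of 0.27 in ΔK14 (interaction -2.36, SE 0.28, adjusted p = 0.0217). Pfkfb3, chosen for this result, which makes the activator of phosphofructokinase, rose less in fl/fl, at 13.3, 16 and 14 CPM in treated skin and 43.5, 23.2 and 24.2 CPM in tumors (log2 fold change 1.06, SE 0.29, adjusted p = 0.0336), than in ΔK14, where its log2 fold change was 3.62 (interaction -2.59, SE 0.35, adjusted p = 0.0476). The call of Pfkfb3 in fl/fl was lost without treated replicate 1, 2 or 3 or tumor replicate 1 or 3 (adjusted p 0.0183 to 0.133), with replicate number as a block (adjusted p = 0.0789) and without a low-count filter (adjusted p = 0.0134). Without tumor replicate 1 and without that filter the adjusted p stayed under 0.05 and the fold was under 2.

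The fl/fl tumors were also set beside the levels in mock fl/fl skin, as values with no test. Of the 1152 genes higher in tumors than in treated skin, 926 stood above every mock library in all tumors. Of the 1612 lower genes, 1092 stood below every mock library, and 3 stood above. The matching shares among all tested genes were not computed, and the same tumor libraries entered the calls, so these counts have no background beside them. Il24 was at 0 to 0.589 CPM, Ereg at 1.16 to 1.55 CPM and Mmp13 at 0.333 to 1.18 CPM in mock skin. For these genes treated and mock skin lay in the same low range, and the tumors stood apart.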

How the data were processed

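The deposited file holds counts, which the authors made as whole reads per gene and did not normalize. The submitters' processing notes name Trimmomatic 0.36, STAR 2.5.3, HTSeq 0.9.1, DESeq2 and mm10. The role of each, the annotation, the use of strand and the treatment of PCR duplicates are not given in the sources used here. Libraries were made with a kit for low-input RNA. Groups came from the sample labels. The comparisons and gene lists were chosen with earlier results of these data known. The deposited counts of 6 libraries, 2808550 to 7404684 per library, were filtered by filterByExpr, scaled by TMM and tested by the two-sided quasi-likelihood test of edgeR 4.0.16 (R 4.3.3, limma 3.58.1) with Benjamini-Hochberg adjustment over all genes tested. Calls needed an adjusted p under 0.05 and a fold over 2. CPM, counts scaled to the TMM-adjusted library size, were computed over the 6 libraries for fl/fl tumors and treated skin and over all libraries for mock skin and ΔK14. SE is the absolute log2 fold change over the square root of F. ΔK14 was fitted alone, and the genotype difference as an interaction over 12 libraries. A pair of mock ΔK14 columns with identical values was counted as 1 library. Depth limits low genes, and intervals and floors cover counting error only, since reads were not counted as molecules. Of 52636 gene IDs, 52489 matched GENCODE M21 (GRCm38), and 97 symbols stood on several IDs, of which the ID with the most counts is reported. Named genes were the Zfp36 family, the 12 smallest p and the 8 largest folds in each direction among calls without overlap (the latter from 50 CPM), and from each list up to 4 called members in each direction by p and the 2 most abundant tested members without a call; members of lists of up to 12 genes could be named freely. Some genes that this rule names are not reported here. Others are marked as chosen after their values were seen or are markers, overlapping genes or members given for a low level. Alternatives were DESeq2 1.42.0, edgeR's exact test, RLE scaling, other count filters, a fit of all libraries, a replicate block, removal of ribosomal and mitochondrial genes, and each library left out. On counts simulated from these libraries with 14950 genes, the quasi-likelihood test called 89.1% of 8-fold and 65.6% of 4-fold changes, with 4 wrong among 147 calls. The simulation changed far fewer genes than were called in the data and drew noise independently for each gene. Its rates may therefore not hold for the real comparison.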

Additional observations from a re-analysis of the deposited data

Results flagged for a closer look

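The change from treated skin to tumor differed between fl/fl and ΔK14 mice for 2 genes by the interaction term of edgeR's quasi-likelihood test. For Tbx1 the difference was -2.36 (SE 0.28, adjusted p = 0.0217), from a log2 fold change of -2.08 in fl/fl and 0.27 in ΔK14. Treated and tumor libraries did not overlap in fl/fl, and in ΔK14 they stood at 24.9 to 33.4 CPM and 36.1 to 41.6 CPM. For Pfkfb3 the difference was -2.59 (SE 0.35, adjusted p = 0.0476), from 1.06 in fl/fl and 3.62 in ΔK14, where levels were 9.69 to 13.9 CPM in treated skin and 141 to 180 CPM in tumors. Neither gene was called without any 1 of the treated libraries, ΔK14 tumor replicate 2 or 3 or fl/fl tumor replicate 3. Only 1 of the 2 was called without ΔK14 tumor replicate 1 or fl/fl tumor replicate 2. The same held with RLE scaling, a mean count of at least 10 or a replicate block. The number of genes with such a difference ran from 0 to 1352 with 1 library left out, the latter without fl/fl tumor replicate 1.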

How the results depend on the processing

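Of the 151 genes named with a call, 126 kept it under all alternatives run, and a direction reversed for 2 genes without a call: Krt1 (-0.78 to 0.39 with 1 library left out, the latter without treated replicate 2) and Krt5 (-0.22 to 1.24, the former without tumor replicate 1). The fl/fl calls numbered 2764, and 3224 with DESeq2, 3431 with edgeR's exact test, 2769 with RLE scaling, 2735 with a mean count of at least 10, 2782 in a fit of all libraries and 2769 without ribosomal and mitochondrial genes. The share of calls that were higher was 41.7%, and 50.6% in the fit of all libraries. Without a count filter 4316 were called, 1924 of them higher. With 1 fl/fl library left out, calls ran from 1106 to 4138, with 503 to 1780 higher and 603 to 2358 lower. Same-numbered treated and tumor libraries had correlations of -0.0125, -0.321 and 0.0757 between their deviations from the group means. The labels do not say what a number shares. With 3 libraries in each group these values cannot decide whether same-numbered libraries came from 1 mouse. With a replicate block 1831 genes were called, 984 of them lower. Tumor replicate 3 was the only library that correlated best with its own number. In ΔK14, calls ran from 2823 to 4773 with 1 library left out, against 3973, and those lower from 1554 to 2789. The interaction was called in 2 genes, both negative, and in 230 with DESeq2 (129 positive, 101 negative), 1003 without a count filter (566 and 437), 1 with RLE scaling, 1 with a mean count of at least 10, 1 with a replicate block, and 0 to 1352 with 1 library left out (0 to 726 positive, 0 to 626 negative). The cause of these differences was not tested. Tumor replicate 1 had the lowest total and sets the precision for low genes.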
